A study of Mus musculus with 50 samples.

Results

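The wound bed of non-regenerative mouse digits was compared between 12 and 6 hours after amputation, with 3 digits at each time, chosen by the sample labels. These are 6 of the 50 samples of the series and 6 of its 29 non-regenerative digits. Per the study's methods, the distal terminal phalanx (P3) of the third hindlimb digit was amputated in male C57Bl/6 mice of 9 to 10 weeks, the wound was left unsutured, and the opposite limb was amputated in the same animal, so that each mouse carried a second wounded digit. At 6 hours, digits 1, 2 and 3 had labelled amputation levels of 60%, 74% and 76% of P3. At 12 hours, digits 1, 2 and 3 had levels of 64%, 64% and 67%. The study set the non-regenerative class above 67%, and digit 1 at 6 hours and all 3 digits at 12 hours lie at or below that level although labelled NR. The 3 digits at 12 hours share 1 date of an earlier period. Digits 1 and 2 at 6 hours share another date of that period, whereas digit 3 at 6 hours carries a date of a later period. No date is shared between the times, so that date and time since amputation cannot be told apart. The labels describe a mixture of cell types around the wound bed and all 6 titles say left. The methods give 3 mice per time point and 1 amputated digit per limb, by which the 3 digits of a time come from separate mice. The titles also carry marks (L1, R1 and M00) that recur within and between the times and are not explained.

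After skin is cut, keratinocytes and resident immune cells release stored IL-1 and other alarm signals, and CXC chemokines made at the wound call neutrophils out of the blood, followed by monocytes. The epidermis at the wound edge changes from its barrier-forming program, with keratins KRT1 and KRT10 and filaggrin, to an activated state that is marked by keratins KRT6, KRT16 and KRT17 and by small proline-rich and late cornified envelope proteins. In the digit tip this epidermis has to migrate over the cut bone, and closure of the wound precedes either regrowth or scarring.

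The 6 libraries held 4891875 to 10918597 expected counts over all genes. The keratinocyte markers were the most abundant of the marker lists in all 6 digits, with a summed level of 30390 to 57120 normalized TPM (the TPM level, corrected for transcript length, scaled between libraries). Digit 1 at 6 hours stood apart from its group. Its Spearman correlation with digits 1, 2 and 3 at 12 hours was 0.938, 0.96 and 0.953 across genes. With digits 2 and 3 at 6 hours it was 0.94 and 0.944. Among the 12-hour digits, digit 1 correlated with digits 2 and 3 at 0.95 and 0.955, against 0.972 between digits 2 and 3. The summed osteoblast and osteocyte markers of digit 1 at 6 hours came to 372.9 normalized TPM, against 5.855 and 111.7 in the other digits at 6 hours. The counts that follow are therefore also given without digit 1 at 6 hours where they moved by more than 1.5 times. No 2 libraries agreed within counting noise.

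Of 12482 genes tested with edgeR's quasi-likelihood test, 8 (0.0641%) were called, and all 8 were higher at 12 hours. A call needed both a change over 2-fold and a p-value under 0.05 after Benjamini-Hochberg adjustment. They were the neutrophil-attracting chemokines Cxcl2 and Cxcl3, the IL-33 receptor Il1rl1, the secreted protease inhibitor Slpi, the late cornified envelope genes Lce3a and Lce3b, the desmosomal cadherin Dsc2 and the glutathione transferase Gsta4. No gene was called lower, where DESeq2 called 69, and 1424 genes (11.4%) had an unadjusted p-value under 0.05 in either direction. For the gene lists that follow, a gene is termed nominally higher or lower when its unadjusted p-value was under 0.05 and the 3 digits of one time did not overlap those of the other. This held for 725 genes higher (5.81%) and 484 genes lower (3.88%), and the median log2 fold change over all tested genes was 0.01. Without digit 1 at 6 hours the shares were 8.36% and 6.15%, without digit 2 there 4.79% and 4.16%, and without digit 3 there 4.43% and 3.34%. Without digit 1, 2 or 3 at 12 hours, 4.67%, 5.84% and 4.51% of all genes were nominally higher. The shares lower in the same fits were 4.63%, 4.57% and 2.52%. Counts of list members without a digit are to be read beside the shares of the same fit. Counts of nominal members within a list moved with single digits, and where a list held 1 such member in a direction, leaving out a digit often took it to 0 or to 2 or more. The number of calls depended on the digits and the tool. Without digit 1 at 6 hours, 181 genes were called, with digit 2 left out at 12 hours 18, and without any one of the other 4 digits none, while DESeq2 on all 6 digits called 239 genes that included the same 8.

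Cxcl2 and Cxcl3 encode ligands of CXCR2, the receptor that draws neutrophils into tissue. Cxcl2 (chromosome 5, 90903871 to 90905938, GRCm38) had normalized counts of 403, 341 and 316 in digits 1, 2 and 3 at 6 hours and 2372, 1409 and 2591 at 12 hours. Cxcl3 (chromosome 5, 90786103 to 90789600) had 21.5, 18.1 and 12.2 at 6 hours and 333, 143 and 253 at 12 hours. For both chemokines the lowest digit at 12 hours lay several-fold above the highest at 6 hours, and digit 2 was the lowest of the 12-hour digits. Cxcl2 rose by 2.59 ± 0.25 on the log2 scale (SE, n = 3 and 3, edgeR adjusted p = 0.0272), and Cxcl3 by 3.83 ± 0.40 (adjusted p = 0.0272). Cxcl3 belongs to a family of closely related genes, between which reads can be split.

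The sequence before the start site of both chemokine genes is shown because they rose together. Among the called genes whose promoters could be searched, only these had a kB-like motif. Each stretch is the 160 bases before the start site in RefSeq (GRCm38.p6), on the gene's strand, chr5:90903739-90903898 for Cxcl2 and chr5:90785941-90786100 for Cxcl3. Capitals mark GGGAATTTCCC, the longest run of letters that both stretches share.
Cxcl2: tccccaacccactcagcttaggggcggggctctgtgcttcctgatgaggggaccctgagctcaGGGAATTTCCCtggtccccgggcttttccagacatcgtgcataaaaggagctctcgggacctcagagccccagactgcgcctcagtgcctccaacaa
Cxcl3: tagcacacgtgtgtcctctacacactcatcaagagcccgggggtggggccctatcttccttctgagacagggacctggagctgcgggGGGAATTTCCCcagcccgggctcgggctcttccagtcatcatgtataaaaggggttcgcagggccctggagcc
The run starts 97 bases before the RefSeq start site of Cxcl2 and 73 bases before that of Cxcl3. The GENCODE annotation, from which the gene positions above come, starts Cxcl2 at 90903871, inside its stretch. These distances therefore hold for the RefSeq start sites only. The run has the form of the kB motif bound by NF-kB factors. On either strand the run of 11 letters was in 14 of 32851 promoters (0.0426%), each taken from 250 bases before to 50 after the start, and its first 10 letters, with any letter at the fifth, were in 135 (0.411%). The letters searched were chosen with these promoters in view. The TATAAA box was found in the promoter of Cxcl3 and of no other called gene searched, against 8.32% of all promoters. TGANTCA, a form of the AP-1 motif that stands in 7.81%, was in none of the called genes' promoters searched. Promoters of Gsta4 and Dsc2 were not in the set and so were not searched.

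The 8 called genes are plotted over the first day in every non-regenerative digit, in normalized TPM. Cxcl2 averaged 7.6 at 0 hours, 19.6 at 3, 85.1 at 6, 498 at 12 and 329 at 24 hours. Cxcl3 was listed at 0 in all 3 digits at 0 hours and averaged 3.28 at 6, 52 at 12 and 49 at 24 hours. At 24 hours the digits spread widely, from 118 to 502 for Cxcl2 and from 7.99 to 91.9 for Cxcl3, so that the order of 12 and 24 hours lies within the spread of the digits.

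**Figure D1:**
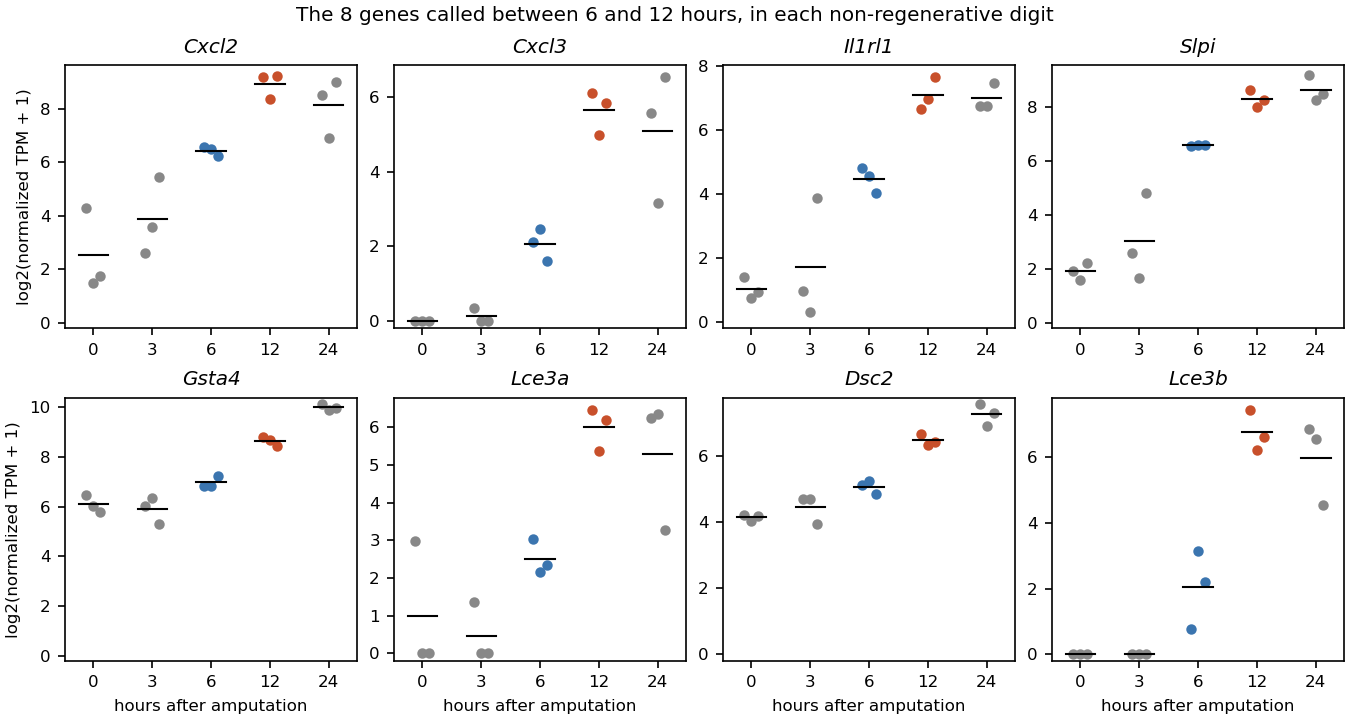
Normalized TPM (as log2 of the value plus 1) of the 8 called genes against hours after amputation, with 1 point per non-regenerative digit and a line at the mean of 3 digits. Blue points are the 6-hour and orange points the 12-hour digits, which do not overlap for any of these genes, and Gsta4, Dsc2 and Slpi had their highest mean at 24 hours.

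Of the 8 genes for neutrophil-attracting chemokines and their receptors, 6 were tested, 2 were called and 3 were nominally higher, with a median log2 fold change of 1.55. The third was Cxcl5, at 162, 39.9 and 36.1 normalized counts at 6 hours and 166, 488 and 390 at 12 hours, where digit 1 of the earlier time reached the level of digit 1 of the later. Cxcl1, the most abundant of these chemokines, had 2832, 1492 and 2091 at 6 hours and 1489, 3376 and 4988 at 12 hours. Its groups overlapped (log2 fold change 0.62 ± 0.40, adjusted p = 0.61), so that Cxcl1 was already at a high count at 6 hours in these digits. The receptor Cxcr2 ranged from 113 to 155 and from 125 to 305.

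Il1rl1 encodes ST2, the receptor of the alarmin IL-33, which is found on mast cells, regulatory T cells and type 2 innate lymphoid cells. The gene (chromosome 1, 40429570 to 40465415) had 271, 238 and 166 normalized counts at 6 hours and 1056, 1333 and 2114 at 12 hours. The groups were well apart, and Il1rl1 rose by 2.74 ± 0.30 on the log2 scale (adjusted p = 0.0272). Its ligand Il33 had 407, 136 and 235 at 6 hours and 556, 462 and 548 at 12 hours, nominally higher (log2 fold change 1.009 ± 0.34, adjusted p = 0.30). The mast cell markers, of which 6 of 8 had too few counts to be tested, summed to 17.18, 41.34 and 27.34 normalized TPM at 6 hours and 14.19, 67.95 and 49.86 at 12 hours. Their overlap rests on digit 1 at 12 hours. Without that digit 2 of 5 tested mast cell markers were nominally higher, against 4.67% of all genes in that fit and 0 of 2 markers with it. Leaving out any other digit gave 0 nominally higher, and the number tested changed with the filter on low counts. The lymphocyte markers summed to 6.633, 3.131 and 6.92 against 17.3, 8.066 and 10.28, low but without overlap, and the 1 tested, Il7r, was nominally higher (log2 fold change 1.28).

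Of the 16 members of the IL-1 family list, all tested, 7 were nominally higher and none lower, with a median of 0.43. Without digit 1 at 6 hours 1 was nominally lower, and without digit 1 at 12 hours 2 were. Il1b, the cytokine released by activated myeloid cells, had 604, 466 and 261 at 6 hours and 3301, 1422 and 2958 at 12 hours, a log2 fold change of 2.53 ± 0.38 that was not called (adjusted p = 0.0814), at a locus shared with an antisense gene. Il1a, Il1rn, Il1r2 and Il18rap were also nominally higher, at log2 fold changes of 0.97, 0.97, 1.29 and 2.03. Il1rn, which encodes the receptor antagonist, and Il1r2, which encodes the decoy receptor, restrain IL-1 signaling. The epidermal members Il1f5, Il1f6, Il1f8 and Il1f9 and the signaling receptor Il1r1 overlapped between the times, at log2 fold changes from -0.32 to 0.43.

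CC chemokines attract monocytes and lymphocytes. Of 10 tested members, 6 were nominally higher and 1 lower, with a median of 1.14 and none called. Ccl4 had 20.3, 23 and 7.73 normalized counts at 6 hours and 133, 75 and 200 at 12 hours, and Ccl9 had 115, 112 and 68.3 against 251, 302 and 502 (adjusted p = 0.0895 for both). Ccl3, Ccl6, Ccl7 and Ccl22 were the other members nominally higher. Ccl20, a chemokine of keratinocytes that attracts CCR6-positive cells, went the other way, at 120, 168 and 116 against 35.5, 74.2 and 104. Ccl2, the main monocyte chemokine, overlapped at 208, 109 and 44.5 against 195, 223 and 359.

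The receptors by which innate cells sense microbes and damage had the highest median of all pathway lists, 2.16. Of 11 tested, 8 were nominally higher, 0 lower and 0 called, and without digit 1 at 6 hours 12 of 13 were nominally higher, against 8.36% of all genes in that fit. Cd14, the co-receptor for lipopolysaccharide, had 142, 134 and 57.4 at 6 hours and 1052, 438 and 888 at 12 hours (log2 fold change 2.85 ± 0.42, adjusted p = 0.0759). Nlrp3, the inflammasome sensor, had 104, 138 and 32.2 against 748, 338 and 689, and Clec4d, a C-type lectin receptor, 220, 145 and 81.2 against 798, 408 and 771. Tlr2, Tlr13, Trem1, Clec4e and C5ar1 were the remaining members nominally higher. Ly96, the partner of TLR4, was the only tested member with a negative log2 fold change, -0.12.

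Neutrophil markers were also higher as a sum at 12 hours. They share genes with the lists above, among them Trem1 (innate receptors), Il1r2 (IL-1 family) and Cxcr2 (chemokine receptors), so that these lists are not independent. The summed level of 12 neutrophil markers was 391.5, 276.7 and 263.1 normalized TPM at 6 hours and 1544, 587.4 and 1178 at 12 hours, without overlap and with digit 2 the lowest at 12 hours. Of 10 tested markers, 6 were nominally higher, with a median log2 fold change of 1.91, and without digit 1 at 6 hours 9 of 10 were. S100a8 had 83.5, 98 and 38.7 normalized counts against 520, 234 and 462, and Hdc, the histamine-forming enzyme, 278, 119 and 84.4 against 1366, 388 and 832. Of the defining neutrophil markers, Ly6g was not detectable at this depth in 5 of 6 digits. Its 3 counts were in digit 2 at 6 hours, and each digit at 12 hours had 0. Stfa2l1 had 0 to 1.64 counts at 6 hours and 9.38 to 15.2 at 12 hours. The 13 monocyte and macrophage markers summed to 335.5, 279.8 and 317.8 against 337, 358 and 431.8, which nearly touch. Of 12 tested, 5 were nominally higher, and leaving out digit 2 or 3 of either time brought the 5 down to 3. In bulk tissue, more cells of a type and more RNA per cell cannot be told apart, and the part of these markers in the rise of Cxcl2, Cxcl3 and Il1rl1 was not tested. The keratinocyte sums were 31250, 52940 and 57120 at 6 hours and 37160, 33990 and 30390 at 12 hours. They overlapped only through digit 1 at 6 hours. Without that digit 4 of 10 keratinocyte markers were nominally lower and 1 higher, against 6.15% and 8.36% of all genes. With it, 0 were lower and 2 higher.

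**Figure D2:**
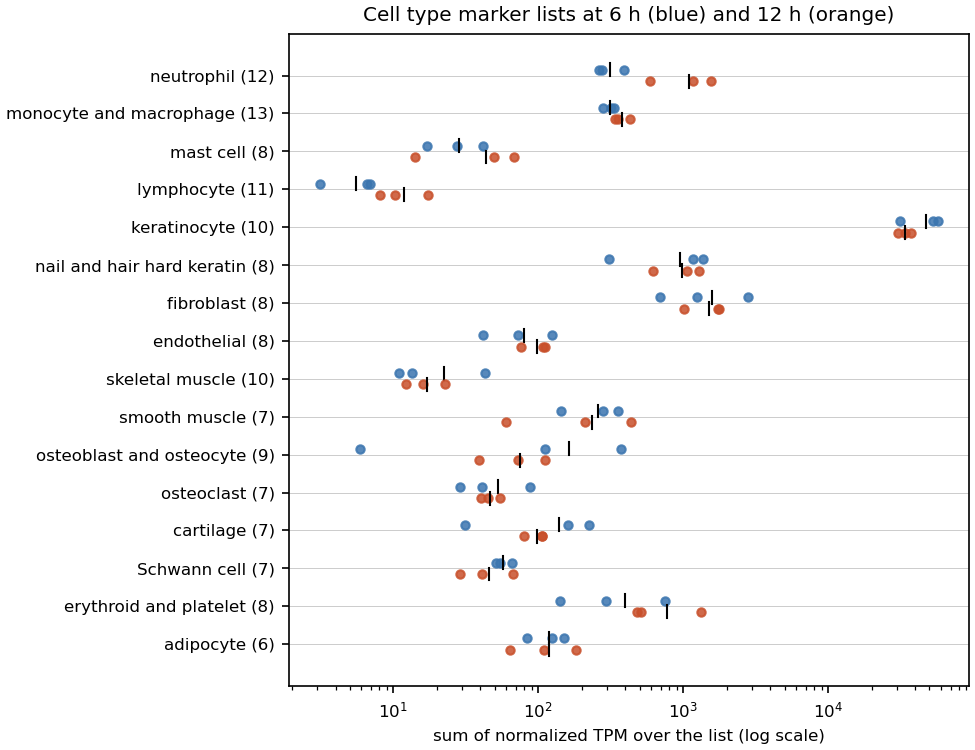
Summed normalized TPM of each cell type marker list (log axis, number of members in the table in brackets) in the 3 digits at 6 hours (blue) and the 3 at 12 hours (orange), with a line at the mean. Neutrophil sums at 12 hours (587.4 to 1544) lie above those at 6 hours (263.1 to 391.5). The monocyte and macrophage (279.8 to 335.5 against 337 to 431.8) and lymphocyte sums (3.131 to 6.92 against 8.066 to 17.3) do not overlap either. Keratinocyte, fibroblast, endothelial, muscle and bone sums overlap, the keratinocyte sums only through digit 1 at 6 hours.

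The study's cultured bone marrow-derived macrophages, from female C57BL/6 mice, give a level of the called genes in 1 leukocyte type. Their values stand in a separate table, so that levels are given side by side without a test. Cxcl2 averaged 10.7 normalized TPM in untreated M0 cultures, 215 in M1 (interferon-gamma and lipopolysaccharide for 24 hours) and 18.2 in M2 (IL-4), and Slpi 1.15, 58.8 and 3.93. Il1rl1 averaged 2.55, 2.05 and 38.9, so that M2 held the highest of the 3 levels. Gsta4 and Dsc2 stayed below 1 in each state, and Lce3a and Lce3b were listed at 0.

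Antimicrobial and alarmin genes included the called gene Slpi, which encodes an inhibitor of neutrophil elastase made by epithelium and leukocytes. Slpi (chromosome 2, 164354070 to 164389095, overlapping Mir7678) had 276, 277 and 253 normalized counts at 6 hours and 1226, 746 and 950 at 12 hours. The 6-hour digits were nearly equal and the 12-hour digits all higher, and Slpi rose by 1.86 ± 0.21 on the log2 scale (adjusted p = 0.0272). Of 10 tested members, 6 were nominally higher and 0 lower, with a median of 1.28. Lcn2, the iron-sequestering lipocalin, had 94.3, 184 and 118 against 352, 497 and 371, and the beta-defensin Defb4 had 14.3, 7.26 and 7.73 against 38.2, 53.6 and 65.4. Defb1, the constitutive defensin of epithelium, was at 1213, 1022 and 1368 against 1021, 812 and 1017. Of the neutrophil granule genes, Camp and Ngp had at most 1 count in any digit, and Ltf had 0, 1 and 0 counts at 6 hours and 0, 10 and 16 at 12 hours.

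Lce3a and Lce3b encode late cornified envelope proteins, cross-linked into the outer keratinocyte layers, and the LCE3 group is the one known to be induced when the skin barrier is broken. Lce3a (chromosome 3, 92925287 to 92926230) had 14.3, 7.26 and 8.38 normalized counts at 6 hours and 175, 79.9 and 142 at 12 hours. Lce3b (chromosome 3, 92932979 to 92934097) had 1.19, 15.7 and 7.09 at 6 hours and 355, 148 and 195 at 12 hours. Both were near the limit of detection at 6 hours and clearly measured in each 12-hour digit, with digit 1 the highest. Lce3a rose by 3.73 ± 0.44 (adjusted p = 0.0275) and Lce3b by 4.86 ± 0.61 on the log2 scale (adjusted p = 0.0387), the largest log2 fold change of the called genes. In digits at 0 and 3 hours Lce3b was listed at 0.

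Both genes lie next to each other on opposite strands and rose from near 0, so the bases before their start sites are shown as well, in the same RefSeq build, chr3:92926231-92926390 (minus strand) for Lce3a and chr3:92932819-92932978 (plus strand) for Lce3b. Capitals mark the longest run of letters that both stretches share.
Lce3a: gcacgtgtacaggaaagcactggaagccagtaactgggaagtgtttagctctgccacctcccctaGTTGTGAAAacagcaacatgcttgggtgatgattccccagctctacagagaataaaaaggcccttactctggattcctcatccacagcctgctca
Lce3b: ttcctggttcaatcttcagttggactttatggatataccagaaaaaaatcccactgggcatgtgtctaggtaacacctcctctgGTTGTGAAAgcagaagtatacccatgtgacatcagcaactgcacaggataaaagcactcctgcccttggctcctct
The shared run of 9 letters starts 95 and 76 bases before the start sites and stands on either strand in 78 of 32851 promoters (0.237%). The run was picked from these promoters as the longest they share, so that this share is a description and no test. Neither promoter held the kB-like, TATAAA or TGANTCA letters.

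Among the 35 tested genes of the cornified envelope, 13 were nominally higher and 1 lower, and their median log2 fold change was 0.19. The 13 were all 6 Lce3 genes, from Lce3a to Lce3f, and 7 Sprr2 genes. Lce3c had 339, 513 and 287 normalized counts at 6 hours against 1539, 867 and 752, and Lce3d 246, 323 and 223 against 1189, 635 and 667. Sprr2d, a small proline-rich protein gene, had 113, 95.6 and 116 against 679, 207 and 407, and Sprr2f 8.36, 3.63 and 3.87 against 147, 27.2 and 65.4. The 12 tested Lce1 genes, whose products belong to the normal barrier, all had negative log2 fold changes, from -0.74 to -0.25, with overlapping groups. Filaggrin (Flg) was the 1 member nominally lower, at 26430, 46750 and 54340 against 20990, 20950 and 11410. Without digit 1 at 6 hours, 13 members were nominally higher and 6 lower, and without digit 1 at 12 hours 13 were higher and 13 lower, so that the number lower turned on single digits and the number higher did not. Members of these families are near-identical in sequence, and reads can be split between them.

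Of 10 wound-induced, basal and suprabasal keratins, 5 were nominally higher and 2 lower, with a median log2 fold change of 0.29. Without digit 1 at 6 hours, 4 were higher and 4 lower, and without digit 2 at 6 hours or digit 3 at 12 hours 1 was lower. Krt6a had 30660, 30450 and 22960 normalized counts at 6 hours and 97960, 46470 and 57690 at 12 hours, and Krt17 3998, 4380 and 3429 against 18760, 7858 and 8552. Krt6a, Krt6b, Krt16, Krt17 and Krt14 were nominally higher, at log2 fold changes from 0.52 to 1.57, and none was called (Krt17, adjusted p = 0.134). Krt15, a keratin of quiescent basal cells, had 925, 1939 and 1702 against 233, 155 and 548, with a log2 fold change of -2.29 ± 0.46 (adjusted p = 0.132). It was -2.55 without digit 1 at 6 hours (adjusted p = 0.0287), the only fit with 1 digit left out in which it was called. With the amputation level as a term it was -1.88. Krt2 was nominally lower at 160300, 186500 and 185600 against 105600, 136200 and 60970. Krt1 overlapped, since digit 1 at 6 hours had 38390 where the other two had 150000 and 177000. Krt5, the basal partner of Krt14, was at 16560, 14750 and 17690 against 19370, 15760 and 16340.

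**Figure D3:**
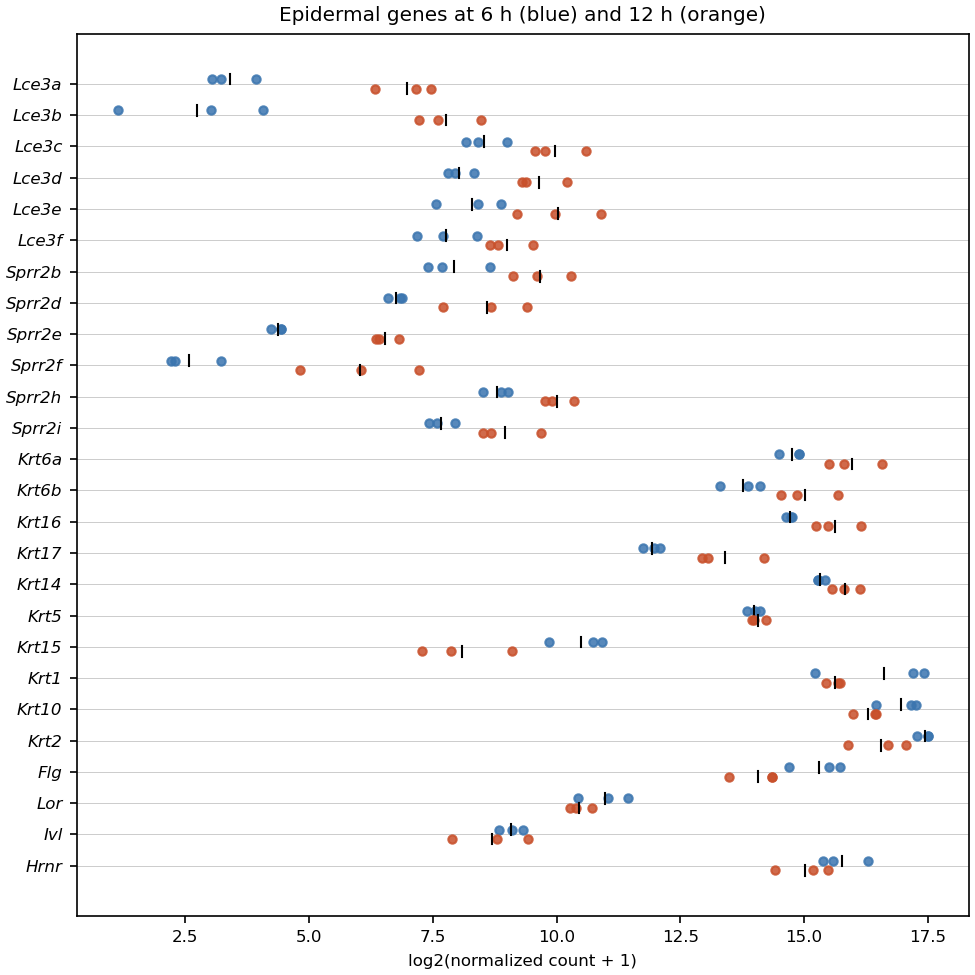
Normalized counts (as log2 of the value plus 1) of epidermal genes in each digit at 6 hours (blue) and 12 hours (orange), with a line at the mean of 3 digits. Lce3, Sprr2 and wound-induced keratin genes lie to the right at 12 hours, Krt15 and Flg to the left, and Krt1, Krt10, Lor, Ivl and Hrnr overlap.

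Dsc2, a desmosomal cadherin that joins neighbouring epithelial cells, had 563, 615 and 478 normalized counts at 6 hours and 1745, 1372 and 1455 at 12 hours. It rose by 1.47 ± 0.17 on the log2 scale (adjusted p = 0.0275), the smallest log2 fold change of the called genes and one with little spread between digits. Gsta4, which detoxifies the lipid peroxidation product 4-hydroxynonenal (chromosome 9, 78182774 to 78209349), had 403, 409 and 547 at 6 hours and 1622, 1455 and 1236 at 12 hours. It rose by 1.66 ± 0.19 (adjusted p = 0.0275) and averaged 68.5 normalized TPM at 0 hours, 126 at 6, 396 at 12 and 1020 at 24 hours, with the lowest digit at 24 hours at 944. Other antioxidant and metallothionein genes did not move as a group, with 1 of 11 nominally higher (Slc7a11, the cystine transporter, log2 fold change 1.35 ± 0.28), 1 lower (Mt2, -0.49) and a median of 0.16. Without digit 1 at 6 hours, 2 of the 11 were nominally higher and 0 lower.

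Thbs1 and Creld2 stood just outside the threshold, both at an adjusted p of 0.0517. Thbs1, the matricellular protein thrombospondin-1 of platelets and wounds, had 1710, 1971 and 925 normalized counts at 6 hours and 6825, 5791 and 9350 at 12 hours (log2 fold change 2.25 ± 0.31). Its locus overlaps a non-coding gene on the other strand. Creld2, an endoplasmic reticulum stress gene, had 88.3, 98 and 137 against 419, 296 and 387 (1.75 ± 0.24). Acod1, which makes itaconate in activated macrophages, had 78.8, 73.8 and 43.8 against 624, 224 and 449 (2.74 ± 0.40, adjusted p = 0.0744). Matricellular genes otherwise held 1 further nominally higher member of 13, tenascin-C (Tnc), at 1464, 451 and 460 against 1519, 2453 and 3288, where digit 1 at 6 hours fell just below the 12-hour digits. Of the matricellular genes, 6 of 13 were nominally higher without digit 1 at 6 hours, and without digit 1 at 12 hours 4.

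No gene passed the test in the lower direction, and the 12 genes with the smallest p-values there had adjusted p-values from 0.0895 to 0.133. They included 2 ligands of the EGF receptor, which drive keratinocyte migration and growth. Ereg had 2306, 2342 and 2033 normalized counts at 6 hours and 1003, 1368 and 1081 at 12 hours (log2 fold change -0.95 ± 0.17, adjusted p = 0.0989). Areg had 437, 397 and 596 against 268, 222 and 212 (-1.03 ± 0.21, adjusted p = 0.131). Of the 7 tested genes of that list, Btc was also nominally lower, Epgn was nominally higher at 993, 1336 and 803 against 2255, 1405 and 1550, and Hbegf, Tgfa and the receptor Egfr overlapped. Without digit 1 at 6 hours, 2 genes of that list were nominally higher and 2 lower. Sphk1, which makes sphingosine-1-phosphate, had 872, 757 and 878 against 442, 453 and 434, the least spread of these genes at 12 hours. Tppp3 had 528, 805 and 642 against 166, 270 and 265, and Agpat4 936, 1060 and 1168 against 395, 575 and 388. Mt4, the metallothionein of stratified epithelium, had 1893, 1606 and 1721 against 695, 1043 and 867. Pla2g2f, an epidermal phospholipase, Gdpd2, Fcho1, Olah, Krt15 and Rnf19b made up the rest, at log2 fold changes from -2.29 to -0.71. The loci of Ereg, Sphk1 and Gdpd2 overlap a gene on the other strand.

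**Figure D4:**
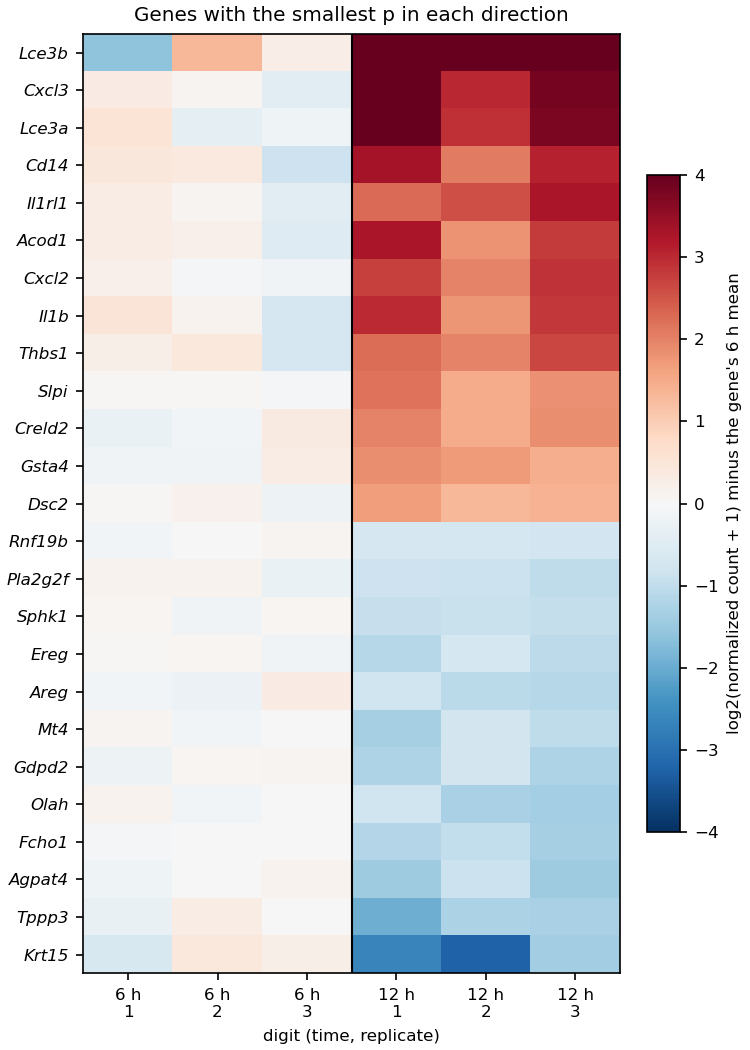
Genes (rows) called or with the smallest p-values in each direction, shown per digit (columns) as log2 of the normalized count plus 1 minus the gene's 6-hour mean, with colors that stop at the ends of the scale shown. The choice of genes fixes the direction of the 12-hour digits, and digit 2 at 12 hours is the palest for most of the upper genes other than Il1rl1 and Gsta4.

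How many genes of migration and matrix remodeling were nominally higher turned on digit 1 at 6 hours. Of 16 keratinocyte migration genes, Lama3, Itga2 and Itgb4 were nominally higher and 0 lower (median 0.58). Leaving out digit 1 at 6 hours, 11 of the 16 were nominally higher, without digit 2 at 12 hours 8 and without digit 3 at 12 hours 5. Of all genes in those fits, 8.36%, 5.84% and 4.51% were nominally higher. Lama3, a chain of the basement membrane protein laminin-332, had 1154, 889 and 568 normalized counts against 2810, 1757 and 1793. Of 12 tested metalloproteinases and inhibitors, Mmp8, Mmp10 and Timp1 were nominally higher (median 0.67), against 7 without digit 1 at 6 hours and 1 without digit 3 at 6 hours. The collagenase gene Mmp13 had 949, 55.7 and 42.5 against 742, 697 and 672, where digit 1 at 6 hours was the highest of all 6. The 14 collagen genes had a median of -0.40, with Col7a1 of the anchoring fibrils nominally lower and the fibrillar genes spread by digit 1 at 6 hours, whose Col1a1 count was 6828 against 864 and 2485. Without digit 2 at 6 hours, 5 collagen genes were nominally lower. None of 18 cell cycle genes was nominally higher or lower (median 0.24, and 3 higher without digit 3 at 6 hours), with Mki67 at 529, 653 and 911 against 617, 696 and 858.

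Immediate early genes respond to injury within the first hour. Of 18 immediate early genes, Ier3 was nominally higher and Jun, Jund and Klf4 lower, with a median of -0.06. Leaving out digit 1 at 6 hours gave 3 higher and 3 lower, and without digit 3 at 12 hours 0 and 1. Fos had 1367, 949 and 889 normalized counts at 6 hours and 1053, 906 and 1480 at 12 hours. Of 13 NF-kB subunits and feedback inhibitors only Nfkbie was nominally higher, and Nfkbia, the inhibitor that NF-kB itself induces, stood at 1125, 520 and 979 against 886, 826 and 1001 (median of the list 0.12). In that list 3 of 13 were nominally higher without digit 1 at 6 hours, and without any other digit 0. In the IL-6 family list of 11, Osm (oncostatin M) was nominally higher at 43, 39.9 and 11 against 213, 149 and 270 and Il6ra lower, while Il6 overlapped at 522, 100 and 132 against 176, 316 and 686. Of 12 tested without digit 1 at 6 hours, 4 were nominally higher, and 2 without digit 1 at 12 hours. Tnf was low throughout, at 0 to 13.3 against 27.2 to 42.1, and was nominally higher, but not without digit 1 at 6 hours or any one digit at 12 hours. Of 6 tested colony-stimulating factor genes the receptors Csf2ra and Csf2rb were nominally higher (median 1.25, 4 of 6 without digit 1 at 6 hours), and those of 9 leukocyte adhesion genes included the integrin genes Itgam and Itgb2 (median 0.71, 3 in all and 5 without digit 1 at 6 hours), while the endothelial Sele, Selp, Icam1 and Vcam1 overlapped. Prostaglandin and leukotriene enzymes had 1 of 9 nominally higher, Alox5 (median 0.62), against 4 of 9 without digit 1 at 6 hours and 0 without digit 2 at 6 hours or digit 1 at 12 hours. Ptgs2 was at 2271, 900 and 714 against 1609, 1870 and 3415.

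Interferon genes varied between digits of the same time. Of 14 tested type I interferon-stimulated genes Oas2 and Oas3 were nominally higher (median 0.56), and Rsad2 was at 274, 24.2 and 6.45 against 280, 83.2 and 126, so that digit 1 was the highest at both times. Of the type I genes, 8 of 15 were nominally higher without digit 1 at 6 hours, without digit 2 at 12 hours 4 of 16 and without digit 1 at 12 hours 1 of 14. Of 11 interferon-gamma GTPases and CXCR3 ligands only Gbp6 was nominally lower (median -0.35), and 0 were without digit 1 at 6 hours. Among 17 genes of hypoxia and glycolysis Slc2a1 was nominally higher and Ndrg1 lower (median 0.08), with 3 higher without digit 2 at 6 hours and 0 higher and 3 lower without digit 2 at 12 hours. Without digit 1 at 6 hours, 2 of these genes were nominally higher.

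Of 16 circadian clock genes Per1 was nominally higher and Arntl, Cry1 and Hlf lower, with a median of -0.34 (5 lower without digit 2 at 12 hours). Arntl, the activator of the clock, had 414, 392 and 230 normalized counts at 6 hours and 154, 168 and 170 at 12 hours, and Per1, one of its repressors, 288, 287 and 242 against 437, 421 and 444. The labels give no clock time of collection, so that time of day and time since amputation cannot be told apart for any gene reported here. Of 9 glucocorticoid-induced genes Fkbp5 was at 407, 420 and 338 against 216, 225 and 231 and Mt2 was also nominally lower, whereas Lcn2 was nominally higher (median -0.17). Without digit 1 at 6 hours 1 of the 9 was nominally lower, and without digit 3 at 6 hours 3 were.

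**Figure D5:**
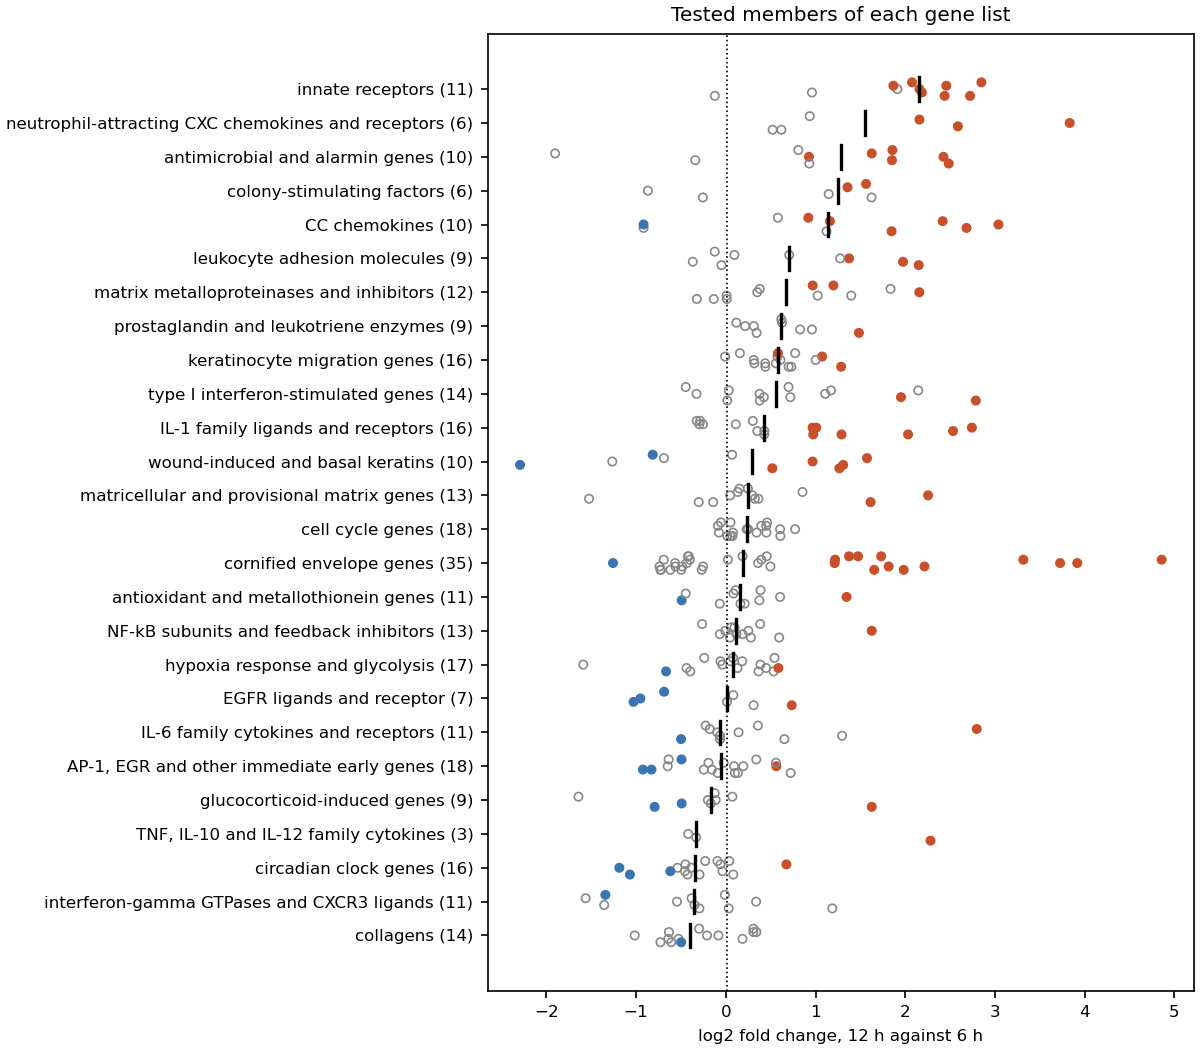
Log2 fold change of every tested member of each pathway list (number tested in brackets), 12 hours against 6 hours, with filled orange points for members nominally higher, filled blue points for those nominally lower and open points for the rest. Black bars are list medians, from 2.16 for innate receptors to -0.40 for collagens, and the dotted line is the median of all tested genes, 0.01.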

How the data were processed

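The authors mapped single-end reads of polyadenylated RNA to mouse genes (mm10 per the labels) with Bowtie, estimated expected counts per gene with RSEM 1.2.3 and deposited these unnormalized. They also deposited a signal, TPM after median-by-ratio scaling, used here for levels per length (normalized TPM). RSEM shares reads among similar genes. The tables hold 21954 genes, of which 26 names that had become dates were restored.

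Expected counts were rounded, filtered with filterByExpr, normalized with TMM and tested on the 6 libraries with the quasi-likelihood test of edgeR 4.0.16 (R 4.3.3), which was tested on simulated data. The study used EBSeq, in whose place edgeR stands, with the study's thresholds (5% false discovery rate, more than 2-fold change of normalized counts plus 1). Normalized counts are TMM-scaled counts. Alternatives used DESeq2 1.42.0, limma 3.58.1, other filters and samples.

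The comparison, members and lists were chosen with earlier results of these data known. Named are all called genes, the 12 smallest p-values per direction (no overlap, mean count of at least 100) and the most abundant list members. Other list members were named after their values were seen. Promoters are from RefSeq and gene positions from the GENCODE annotation of GRCm38. Positions of Dsc2 and Cd14 are not given here, and 2 list members are not reported here. A gene at 0 may have had up to 3 counts, for counting error only.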

Additional observations from a re-analysis of the deposited data

How the results depend on the processing

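Depth limits low genes such as Lce3b and Tnf, and with 3 digits a time 1 digit decides most calls. Against 8 genes called (8 higher, 0 lower), DESeq2 called 239 (170 higher, 69 lower) and edgeR without a filter on low counts 87 (71 higher, 16 lower). One edgeR fit of all 29 non-regenerative digits called 0 genes (290 at an unadjusted p under 0.05, and 282 with date period as a term, also 0 called), as did the amputation level as a term (1124 unadjusted). The cause was not tested. With 1 digit left out, 0 to 181 genes were called (0 to 134 higher, 0 to 47 lower), 181 without digit 1 at 6 hours, 18 without digit 2 at 12 hours and 0 without any of the other 4 (954 to 1252 unadjusted). Limma-voom called 6, size factors of the RLE type 8, a minimum of 10 counts in 3 libraries 11, no fold threshold 8 and limma on normalized TPM 9. All 8 genes kept their direction in all 16 alternatives and each was called in 8 or 9 of them. They were chosen from these same digits, in which the times do not overlap, so that a kept direction is no separate support. Without digit 3 at 6 hours, which leaves the earlier period alone, their log2 fold changes ran from 1.36 to 4.75, none called. The times still share no date in that fit, so that it does not separate date from time since amputation. Counts of list members without each digit were added after seeing the data. No paired analysis was possible because the digits' labels carry no replicate number, and the marks in their titles are not explained and recur within a time (M00 on 2 digits at 6 hours).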
